A study of Mus musculus with 9 samples.

Results

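The comparison described here set naive CD4+ T cells whose CD40L was bound by a plate-coated antibody against cells labelled as a CD40L knockout that met only an isotype antibody. Its members were chosen by sample label: 6 of the 9 libraries of the series, 3 of wild-type cells on anti-CD40L and 3 labelled KO on isotype antibody. All libraries came from mouse spleen on the C57BL/6 background. Naive CD4+ T cells were sorted and put on plates that carried 1 µg/ml of antibody against CD3e, which drives the T cell receptor complex in every group, with the second antibody at 19 µg/ml. The design text describes the knockout as specific to T cells, while the genotype label reads only "cre". The promoter that drives the Cre, the deleted exons, the age and sex of the mice and the length of the culture were not stated in the labels used here. The remaining 3 libraries, wild type on isotype antibody, differ from each of the 2 groups by 1 factor, and their levels are set beside the results. Genotype and antibody change together between the 2 groups compared, so their effects cannot be told apart from these 6 libraries. No label states whether a group's libraries came from separate mice or cultures, so p-values measure only how these libraries vary, and that may be technical.

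CD40L is a member of the TNF superfamily that appears on CD4+ T cells after T cell receptor stimulation and binds CD40 on B cells, dendritic cells and macrophages. It can also bind several integrins, and its short cytoplasmic tail lies inside the T cell. RACK1, which the series title links to CD40L, is a scaffold for activated protein kinase C. A naive T cell that leaves quiescence raises glycolysis, mitochondrial respiration and the synthesis of nucleotides and sterols, and lowers the KLF2-dependent receptors that carry it through lymph nodes and back to blood.

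The targeted gene was read first. The Cd40lg transcript (NM_011616, chromosome X from 57212143 to 57224042 in GRCm38) was at 109, 132 and 163 CPM (counts scaled to the size of each library with the TMM factors) in anti-CD40L replicates 1 to 3. The libraries labelled KO were at 145, 136 and 150.2 CPM. The groups overlapped (log2 fold change -0.10 with an SE of 0.13; edgeR's Benjamini-Hochberg adjusted p = 0.709), so transcript level does not separate the libraries labelled KO from wild type, and every direction below rests on that label. T cell genes were present at overlapping levels on both sides: Cd3e, a signalling chain of the T cell receptor complex, was at 371, 426 and 379 CPM on anti-CD40L and 436, 366 and 391 CPM in the libraries labelled KO, and Cd4 at 418, 435 and 481 against 495, 459 and 415 CPM. Total counts were 5316482 to 11226188 on anti-CD40L and 9298654 to 15565711 in the libraries labelled KO. Anti-CD40L replicate 3, the shallowest, held counts for 11673 genes where the others held 14290 to 17428. It lay at 87.0 on the first principal component, which held 54% of the variance, while the other 8 lay between -19.1 and 10.2. The largest axis of variation therefore set this library apart. Counts of calls are also given without anti-CD40L replicate 3.

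Across all genes, most of those called between the 2 groups were lower on anti-CD40L than in the libraries labelled KO. Of 11256 genes tested, 769 (6.83%) passed the threshold: 202 (1.79%) were higher on anti-CD40L and 567 (5.04%) were lower (quasi-likelihood test of edgeR at a Benjamini-Hochberg adjusted p under 0.05). At least 2-fold changes were found for 17 higher and 240 lower genes, and at least 4-fold changes for 1 higher gene, the NF-kB inhibitor gene Tnip3, and 73 lower ones. The median log2 fold change was 0.46 among the higher and -0.85 among the lower genes, against -0.01 over all genes tested and a median SE of 0.15. Levels did not overlap between the groups for 2947 genes (26.2%), 1159 higher (10.3%) and 1788 lower (15.9%), and 768 of the 769 called genes were among them. Ero1a, an oxidase of the endoplasmic reticulum, was the called gene whose groups overlapped. Nearly every called gene thus separates the groups, so the separation of called genes below is no added support. Called lower genes had a median of 48.2 CPM in the libraries labelled KO and called higher genes a median of 119 CPM on anti-CD40L. Without anti-CD40L replicate 3 there were 158 higher and 538 lower calls. Single libraries moved the total by more than 1.5 times: it was 448 without anti-CD40L replicate 1, 447 without KO replicate 1 and 346 without KO replicate 2, of which 56 were higher.

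**Figure D1:**
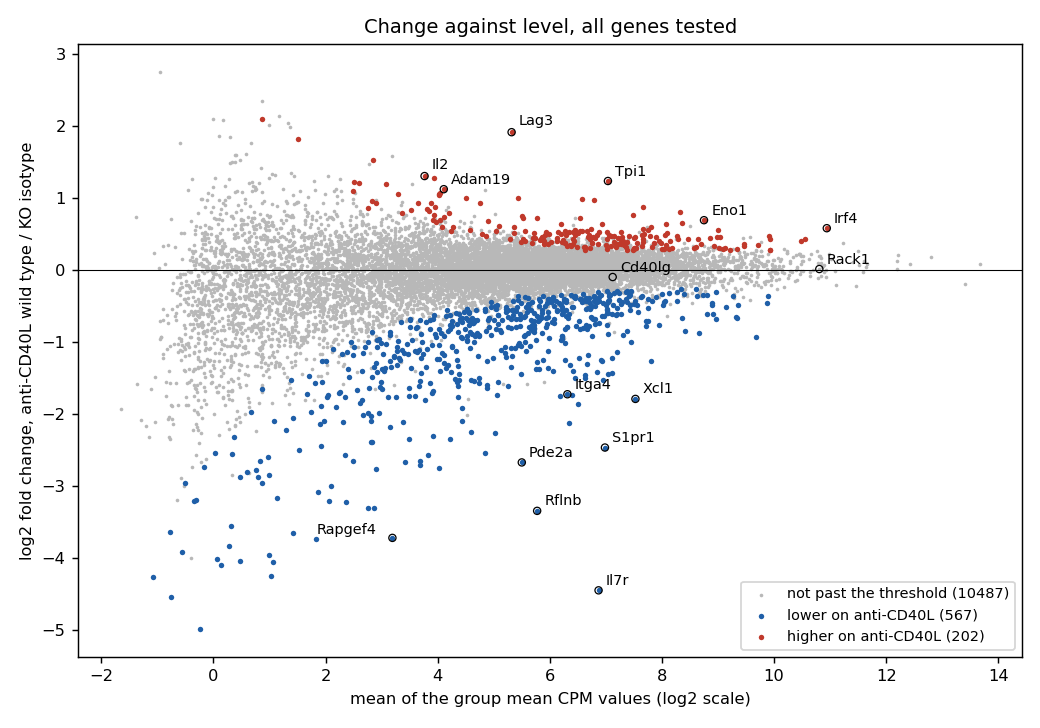
Log2 fold change (anti-CD40L wild type over the libraries labelled KO) against the mean level of the groups in CPM on a log2 scale, 1 point per gene tested. The 567 genes called lower (blue) reach further from 0 than the 202 called higher (red), and Cd40lg and Rack1 lie near 0 among the genes not called (grey).

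Some genes that differed hold the letters of known response elements in their promoters, and 4 are shown because they stand for a direction or a pathway met below. Sequences are from RefSeq with the build GRCm38.p6, 250 bases upstream of the annotated start, 5′ to 3′, with the matched motif in capitals. Txnip, which restrains glucose uptake and thioredoxin, holds a forkhead match (TGTTTAC, read on the opposite strand). Srxn1, which repairs oxidised peroxiredoxins, holds AP-1 matches (TGACTCA, on the opposite strand). Hmgcs1, an early enzyme of sterol synthesis, holds a sterol response element (TCACNCCAC). Dusp5, a phosphatase that inactivates ERK, holds an NF-kB match (GGG and TTTCC with 2 bases of any kind between, on the opposite strand). They were chosen after their matches were seen, and 143 of the 180 genes named by rule have a promoter window.
Txnip (chr3:96557707-96557956, plus strand): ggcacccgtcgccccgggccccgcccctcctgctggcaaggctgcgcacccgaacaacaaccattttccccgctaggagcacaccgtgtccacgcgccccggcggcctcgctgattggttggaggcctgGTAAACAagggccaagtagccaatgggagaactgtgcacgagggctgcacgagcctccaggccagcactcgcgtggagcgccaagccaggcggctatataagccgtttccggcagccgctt
Srxn1 (chr2:152105274-152105523, plus strand): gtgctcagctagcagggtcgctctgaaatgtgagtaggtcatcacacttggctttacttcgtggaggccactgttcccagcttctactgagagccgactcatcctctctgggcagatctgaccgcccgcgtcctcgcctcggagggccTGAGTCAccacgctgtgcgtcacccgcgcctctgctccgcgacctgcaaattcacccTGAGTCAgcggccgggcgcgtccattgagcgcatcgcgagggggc
Hmgcs1 (chr13:119690101-119690350, plus strand): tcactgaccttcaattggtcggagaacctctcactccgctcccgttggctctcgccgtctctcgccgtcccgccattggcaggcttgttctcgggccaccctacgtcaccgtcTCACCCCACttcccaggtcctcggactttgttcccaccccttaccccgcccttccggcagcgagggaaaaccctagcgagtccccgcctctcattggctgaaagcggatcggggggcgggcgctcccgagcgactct
Dusp5 (chr19:53528895-53529144, plus strand): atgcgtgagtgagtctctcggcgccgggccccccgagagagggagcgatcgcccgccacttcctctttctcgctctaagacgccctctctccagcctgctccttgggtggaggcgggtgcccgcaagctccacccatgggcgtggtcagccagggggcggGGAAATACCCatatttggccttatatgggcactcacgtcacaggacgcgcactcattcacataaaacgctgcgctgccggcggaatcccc

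Both strands of 300-base windows (250 bases before to 50 after the start) were searched, 11421 windows of 9006 tested genes, and a match describes letters only. The forkhead letters were in 2.65% of all windows, 0.515% of windows of genes called higher (1 of 194) and 3.35% of those called lower (21 of 626). AP-1 letters were in 3.41% of all windows, 2.58% of the higher and 4.31% of the lower set. NF-kB letters were in 1.65%, 3.09% and 1.44%, and the sterol element in 1.1%, 1.55% and 1.28%, in the same order. The E-box CACGTG, which MYC and related factors bind, was in 10.4% of all windows, 11.3% of the higher and 9.74% of the lower set. No match overlaps another in the sequences shown.

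The 4 genes with printed promoters separated the groups. Txnip was at 57.5, 60.5 and 69.7 CPM on anti-CD40L and at 184, 181 and 135 CPM in the libraries labelled KO, so the highest anti-CD40L library had less than the lowest KO one (log2 fold change -1.42 with an SE of 0.14; edgeR's Benjamini-Hochberg adjusted p = 6.93e-05). Srxn1 was at 11.8, 13.6 and 11.5 against 29.2, 24.5 and 23.9 CPM, again without overlap (log2 fold change -1.06 with an SE of 0.17; edgeR's Benjamini-Hochberg adjusted p = 0.00186). Dusp5 went the other way, with 234, 261 and 295 CPM on anti-CD40L and 151, 138 and 142 CPM in the libraries labelled KO (log2 fold change 0.87 with an SE of 0.12; edgeR's Benjamini-Hochberg adjusted p = 0.000568). Hmgcs1 was at 393, 338 and 341 against 216, 259 and 301 CPM, higher in each anti-CD40L library by a smaller margin (log2 fold change 0.46 with an SE of 0.11; edgeR's Benjamini-Hochberg adjusted p = 0.0204). Hmgcs1 was not called without anti-CD40L replicate 1 or KO replicates 1 or 2, nor with a fit of only the 6 libraries (adjusted p from 0.0509 to 0.0715).

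Among genes that reached 5 CPM in a group, the largest difference was that of Il7r, the receptor chain through which IL-7 keeps resting T cells alive (chromosome 15, 9506159 to 9529941). Its level was 6.9, 12.8 and 11.5 CPM in anti-CD40L replicates 1 to 3 and 241, 219.5 and 209.9 CPM in the libraries labelled KO, a 21.9-fold difference (log2 fold change -4.46 with an SE of 0.23; edgeR's Benjamini-Hochberg adjusted p = 2.49e-07). Wild-type isotype libraries had 229.7, 139 and 220.1 CPM, beside the libraries labelled KO. Rflnb, a filamin-binding protein gene, was at 8.69, 10.4 and 10.3 against 111, 108 and 80.3 CPM (10.2-fold lower; log2 fold change -3.35 with an SE of 0.16; edgeR's Benjamini-Hochberg adjusted p = 1.86e-07). Rapgef4, which activates RAP1 when it binds cyclic AMP, was at 1.7, 1.62 and 0 against 18.9, 17.9 and 14.8 CPM (log2 fold change -3.73 with an SE of 0.40; edgeR's Benjamini-Hochberg adjusted p = 0.000127). The rule that picked genes by size required groups without overlap, so their separation is no added support. All 3 remained called in each of the 21 alternative settings. The other lower genes of largest change were Cyp2d22 (log2 fold change -3.74), a cytochrome P450 gene, Ly6c1 (-3.32), a surface antigen of memory-like T cells and myeloid cells, Ifit1bl1 (-3.31) and Ifi213 (-2.75), both of interferon-induced families, Cnga1 (-3.09), a cyclic nucleotide-gated channel, and Cd7 (-3.00), a T cell surface protein. Irf7, Il18r1 and Ddx58, also among the 12 largest, are described with their groups below. Several of these belong to families with close copies, between which the authors' counting could split reads, so their values are uncertain. Ifit1bl1 was not called without anti-CD40L replicates 1 or 3, nor with limma-voom or limma-voom with quality weights or thinned counts (adjusted p from 0.0578 to 0.179).

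Gains were smaller. Lag3, an inhibitory receptor that binds MHC class II, had 50.8, 58.6 and 80.3 CPM on anti-CD40L and 14.7, 17.5 and 17.6 CPM in the libraries labelled KO, 3.76-fold higher (log2 fold change 1.91 with an SE of 0.19; edgeR's Benjamini-Hochberg adjusted p = 8.48e-05). As the rule by size required, every anti-CD40L library exceeded every KO library, and the highest was replicate 3. Next by size among named genes that reached 5 CPM came Ppic (1.53), a cyclophilin gene, Il2 (1.30), Niban1 (1.28), Tpi1 (1.23), Eno1b (1.22), Ptpn13 (1.21), a tyrosine phosphatase gene, Lif (1.19), Adam19 (1.12), Kctd17 (1.10), Cpd (1.07), a carboxypeptidase gene, and Ctla4 (1.06), all as log2 fold changes. Of these 12, Lag3, Tpi1, Adam19 and Cpd were called in all 21 alternative settings. Ppic was not called without KO replicate 2 (adjusted p = 0.0516), and Ptpn13 was not called with thinned counts (adjusted p = 0.0563). Niban1 was not called without anti-CD40L replicates 1 or 3 or KO replicate 2 (adjusted p from 0.07 to 0.118). Kctd17 was not called without anti-CD40L replicates 1, 2 or 3 or KO replicates 1, 2 or 3 or wild-type isotype replicates 1 or 3, nor with a fit of only the 6 libraries or a replicate block or thinned counts or counts averaged over transcripts or counts rounded down (adjusted p from 0.0501 to 0.183). Eno1b, a near copy of Eno1 whose reads cannot be told from it here, was not called without anti-CD40L replicate 3 or KO replicates 1, 2 or 3 or wild-type isotype replicate 2, nor with limma-voom or a fit of only the 6 libraries or a replicate block or thinned counts (adjusted p from 0.0545 to 0.145).

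**Figure D2:**
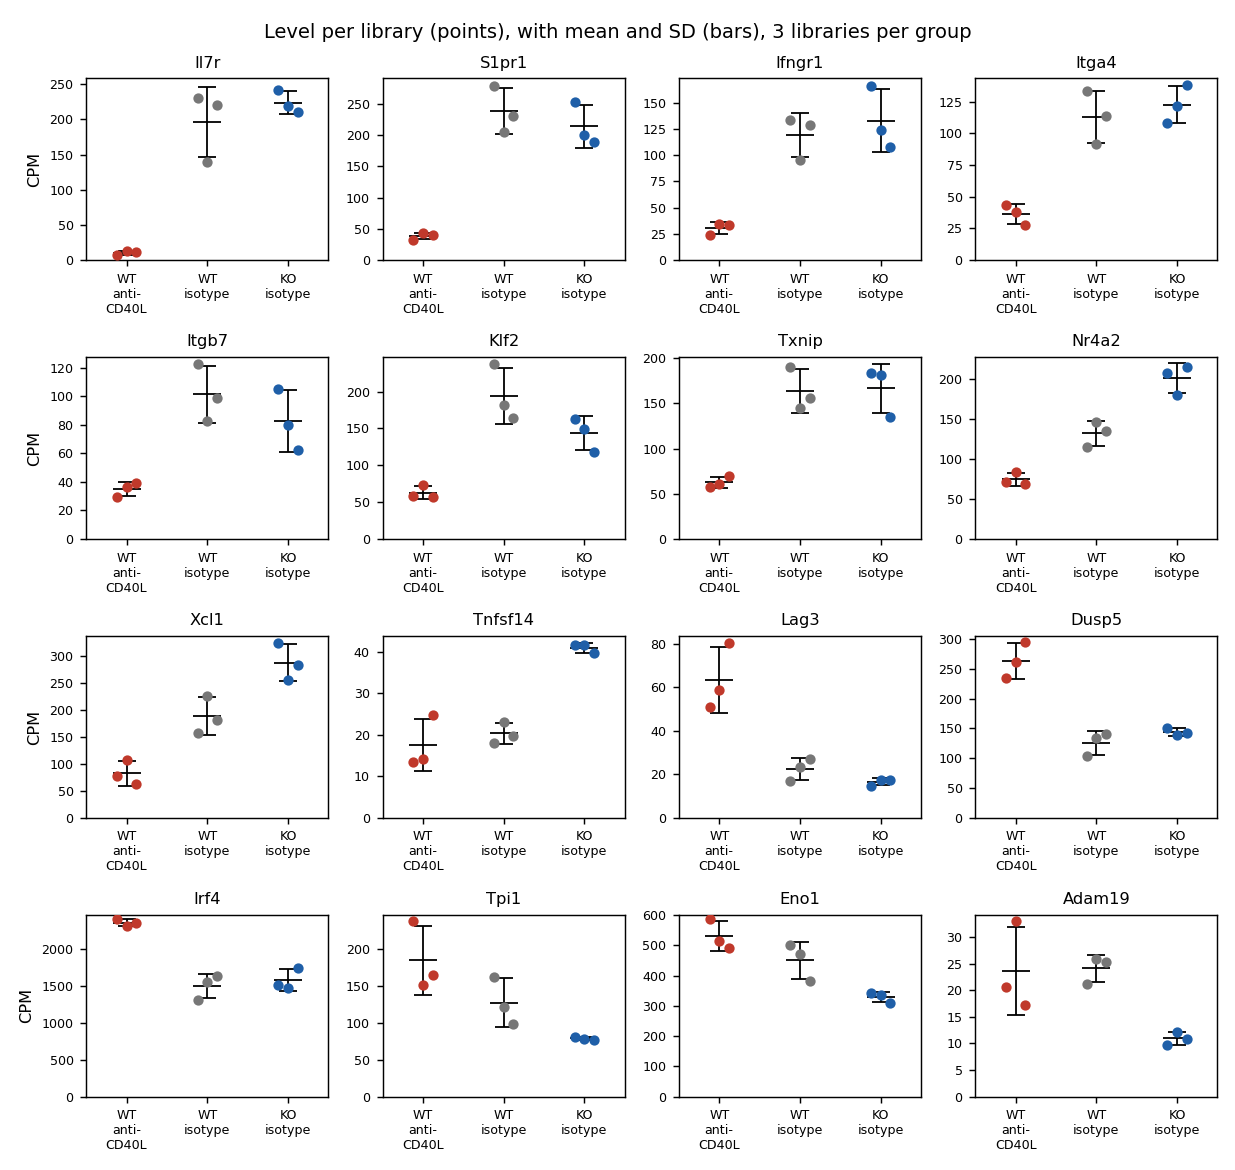
Level in CPM of 16 genes in each library (points), with the group mean and SD (bars), 3 libraries per group, each panel on its own linear axis from 0. Il7r, S1pr1, Ifngr1, Itga4, Itgb7, Klf2 and Txnip are low on anti-CD40L while both isotype groups lie above, whereas for Tnfsf14 and Adam19 the wild-type isotype libraries lie with the anti-CD40L ones, and for Nr4a2, Xcl1, Tpi1 and Eno1 they lie between.

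Counts by pathway were taken over 44 gene lists sorted into metabolism, adhesion, signalling and cell programmes. In metabolism 42 of 389 tested genes were higher and 20 lower (15.9% called, median log2 fold change 0.10). Adhesion ran the other way, with 4 of 193 genes higher and 34 lower (19.7%, median -0.10). Signalling lists had 15 of 405 higher and 58 lower (18%, median -0.10), and programme lists 4 of 159 higher and 29 lower (20.8%, median -0.08). All 4 shares are above the 6.83% of all genes. Every list count below stands beside that share, made of 1.79% higher and 5.04% lower. The lists were chosen with earlier results of these data known, so this contrast is no test of the pathways. Where a list is given below as having none higher or none lower, the fits that left out 1 library gave at most 2 such calls, in fits without anti-CD40L replicate 2 or 3, KO replicate 3 or wild-type isotype replicate 1, polyamine synthesis excepted. Without KO replicate 2 the metabolism counts were 13 higher and 8 lower and the signalling counts 4 and 36. Without anti-CD40L replicate 1 the metabolism counts were 20 and 9, with 9 signalling and 2 programme genes higher. Without KO replicate 1 they were 23 and 12, with 2 programme genes higher, as without KO replicate 2. Adhesion counts of higher genes reached 8 without KO replicate 3.

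**Figure D3:**
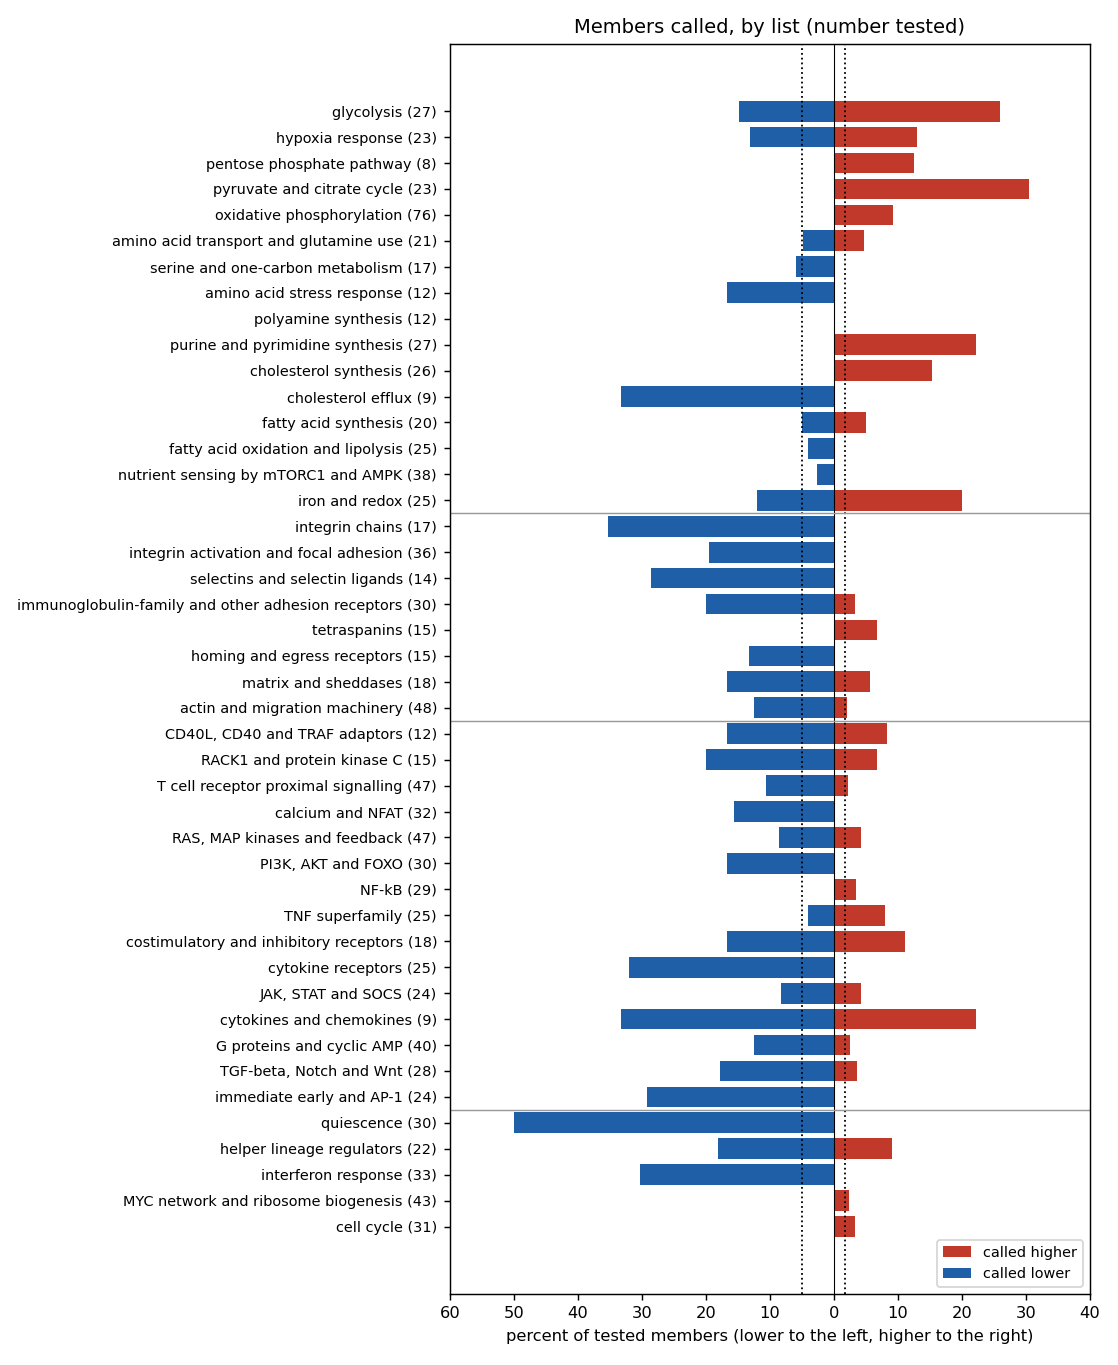
Percent of the tested members of each of 44 lists that were called lower (blue, to the left) or higher (red, to the right) on anti-CD40L, with the number tested in parentheses and dotted lines at the shares over all genes, 5.04% lower and 1.79% higher. Among metabolic lists, at the top, glycolysis, pentose phosphate, citrate cycle, oxidative phosphorylation, nucleotides, cholesterol synthesis and redox reach mostly or only to the right. Hypoxia response, amino acid transport and fatty acid synthesis reach as far to each side, and polyamine synthesis to neither. The other metabolic lists reach only to the left. Adhesion, signalling and programme lists below them reach mostly to the left, furthest for quiescence at 15 of 30. Tetraspanins, NF-kB, TNF superfamily, MYC network and cell cycle reach mostly or only to the right.

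Several glycolytic enzymes were higher on anti-CD40L. Of 27 glycolysis genes 7 were higher and 4 lower, with a median log2 fold change of 0.13 (5 to 9 higher and 1 to 4 lower over the fits that left out 1 library). Tpi1, which interconverts the triose phosphates, was at 237, 150.3 and 165 CPM on anti-CD40L and 80.7, 78 and 76.9 CPM in the libraries labelled KO (log2 fold change 1.23 with an SE of 0.18; edgeR's Benjamini-Hochberg adjusted p = 0.00119). Each anti-CD40L library had more than any KO library, and the wild-type isotype libraries, at 162, 121 and 97.8 CPM, overlapped the lower of them. Eno1, the enolase of most tissues, was at 587, 516 and 492 against 342, 337 and 311 CPM, without overlap (log2 fold change 0.69 with an SE of 0.10; edgeR's Benjamini-Hochberg adjusted p = 0.0015). Pfkp, a phosphofructokinase, was at 239, 213 and 246 against 158, 160.3 and 179 CPM (log2 fold change 0.49 with an SE of 0.08; edgeR's Benjamini-Hochberg adjusted p = 0.00288). The other 4 higher members, listed here after their values were seen, were Pgk1 (0.45), Pgam1 (0.46), Ldha (0.43) and Pkm (0.40), as log2 fold changes. Ldha and Pkm, which make lactate and pyruvate, were not called without KO replicate 2 (edgeR's Benjamini-Hochberg adjusted p = 0.0577 and 0.0624).

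Genes that hold glucose use back, or feed it, were among the lower members. Pdk1, a kinase that closes pyruvate dehydrogenase, was at 96.3, 80.6 and 71.5 against 144, 145 and 134 CPM (log2 fold change -0.76 with an SE of 0.13; edgeR's Benjamini-Hochberg adjusted p = 0.00283). Slc2a3, the glucose transporter GLUT3, had a log2 fold change of -0.71, and Pfkfb3, which makes an activator of phosphofructokinase, one of -0.35. Pdk2, of the same family as Pdk1, was the other lower member (-0.98). Lower calls numbered 1 without KO replicate 2 and 2 without anti-CD40L replicate 1. Slc2a3 was not called without KO replicate 2, nor with thinned counts (adjusted p from 0.0546 to 0.0804), Pfkfb3 not without anti-CD40L replicate 1 or KO replicate 2, nor with a fit of only the 6 libraries (adjusted p from 0.0504 to 0.0774), and Pdk2 not in 7 of the 9 fits that left out 1 library (highest adjusted p = 0.164). Of 23 hypoxia response genes 3 were higher and 3 lower (26.1% called against 6.83% of all genes). Hif1a, the oxygen-regulated transcription factor, was at 586 ± 38.6 CPM on anti-CD40L and 428 ± 37 CPM in the libraries labelled KO (log2 fold change 0.45 with an SE of 0.09). Ndrg1, a stress-induced gene, was lower, at 54.3, 59.3 and 56.4 against 84.9, 84 and 81 CPM (log2 fold change -0.55 with an SE of 0.08; edgeR's Benjamini-Hochberg adjusted p = 0.00153), and the wild-type isotype libraries, at 60.6, 62.1 and 60.1 CPM, lay beside the anti-CD40L ones. Hypoxia counts were 1 higher and 1 lower without anti-CD40L replicate 1 and without KO replicate 2. Of 8 pentose phosphate genes 1 was higher (12.5% called against 6.83% of all genes), Tkt (0.27), a transketolase. Tkt was not called in any of the 9 fits that left out 1 library, nor with a fit of only the 6 libraries or a replicate block or thinned counts (adjusted p from 0.056 to 0.112).

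Some mitochondrial genes were higher by small amounts. Of 23 genes of pyruvate and citrate cycle metabolism 7 were higher and none lower, and 21 had a positive log2 fold change (median 0.18). Got1, the cytosolic aspartate aminotransferase, was at 112, 89.5 and 131 against 80.2, 75.7 and 72.6 CPM (log2 fold change 0.54 with an SE of 0.12; edgeR's Benjamini-Hochberg adjusted p = 0.014). Mdh1, its partner in the malate-aspartate shuttle, had a log2 fold change of 0.44, and Got2, the mitochondrial aminotransferase, one of 0.36. Without KO replicate 2 no member was called: adjusted p was 0.0651 for Got1, 0.0845 for Mdh1 and 0.052 for Got2 (edgeR, Benjamini-Hochberg). Mdh1 was also not called in a fit of only the 6 libraries (0.0502), and the list had 3 calls without anti-CD40L replicate 1 or KO replicate 1. Of 76 oxidative phosphorylation genes 7 were higher and none lower, with 63 positive (median 0.17). The share called was 9.21%, against 6.83% of all genes called in either direction and 1.79% called higher. Atp5g3, a subunit of the ATP synthase ring, was at 229, 207 and 289 against 156, 158 and 173 CPM (log2 fold change 0.57 with an SE of 0.11; edgeR's Benjamini-Hochberg adjusted p = 0.00592). Sdhd, which anchors succinate dehydrogenase, was at 106 ± 10.6 CPM on anti-CD40L and 74.6 ± 4.17 CPM in the libraries labelled KO (log2 fold change 0.51 with an SE of 0.09), and Ndufc2, of complex I, at 70.02 ± 4.55 CPM on anti-CD40L and 49.96 ± 3.33 CPM in the libraries labelled KO (log2 fold change 0.49 with an SE of 0.10). The count was 3 without anti-CD40L replicate 1 or KO replicate 2 and 4 without anti-CD40L replicate 3.

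Calls in nucleotide and sterol synthesis had the same direction. Of 27 purine and pyrimidine genes 6 were higher and none lower, with 23 positive (median 0.21), and 2 were called without anti-CD40L replicate 1, KO replicate 1 or KO replicate 2. Adss, which commits IMP to AMP, was at 401, 354 and 442 against 228, 260.4 and 277 CPM (log2 fold change 0.64 with an SE of 0.10; edgeR's Benjamini-Hochberg adjusted p = 0.0022). Atic, which completes the purine ring, was at 274, 243 and 252 against 176, 186 and 194 CPM (log2 fold change 0.47 with an SE of 0.08; edgeR's Benjamini-Hochberg adjusted p = 0.00247). Neither gene overlapped between the groups, like nearly all called genes. Of 26 cholesterol synthesis genes 4 were higher and none lower, with 23 positive (median 0.21). Besides Hmgcs1, whose promoter is printed above, Fdps, which makes farnesyl diphosphate, was at 82.9, 91 and 99.9 against 63, 64.9 and 60.8 CPM (log2 fold change 0.53 with an SE of 0.10; edgeR's Benjamini-Hochberg adjusted p = 0.0055). The wild-type isotype libraries had 79.1, 93.6 and 80.1 CPM of Fdps, close to the anti-CD40L level. The list kept 2 calls without anti-CD40L replicate 1 or 3 and 1 without KO replicate 1 or 2.

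Of 9 genes tested in the cholesterol efflux list 3 were lower, the sterol exporters Abca1 and Abcg1, and Mylip, which acts on the LDL receptor. Abca1 (log2 fold change -1.56) was not called without anti-CD40L replicates 1 or 2 or KO replicates 1 or 2. A fit of only the 6 libraries did not call Abca1 either (edgeR's highest Benjamini-Hochberg adjusted p over these settings = 0.0834). Mylip, a ubiquitin ligase that removes the LDL receptor, was at 14.5, 13.7 and 16.2 against 28.6, 25.8 and 29.7 CPM, without overlap (log2 fold change -0.93 with an SE of 0.14; edgeR's Benjamini-Hochberg adjusted p = 0.00127). Abcg1, a sterol exporter, was at 5.2, 4.16 and 0 against 28.2, 19.7 and 19.7 CPM (log2 fold change -2.66 with an SE of 0.52; edgeR's Benjamini-Hochberg adjusted p = 0.00893), and was not called with limma-voom or limma-voom with quality weights (adjusted p from 0.0944 to 0.0974). Of 20 fatty acid synthesis genes 10% were called, against 6.83% of all genes. The 1 higher member was Acsl5, which activates long-chain fatty acids (360.1 ± 12.7 CPM on anti-CD40L and 267 ± 6.44 CPM in the libraries labelled KO, log2 fold change 0.43 with an SE of 0.08). Acss1, which activates acetate in mitochondria, was the 1 lower member, at 3.94, 7.1 and 5.54 against 22.2, 19.6 and 14.1 CPM (log2 fold change -1.75 with an SE of 0.24; edgeR's Benjamini-Hochberg adjusted p = 0.000849), and 2 members were lower without anti-CD40L replicate 2 or KO replicate 3. Of 25 genes of fatty acid oxidation and lipolysis 1 was lower (4%), and of 38 genes of nutrient sensing by mTORC1 and AMPK 1 was (2.63%). Both shares are below the 6.83% of all genes. The latter call was Sesn1, a leucine-sensing inhibitor of mTORC1 (38.5 ± 4.58 CPM on anti-CD40L and 67.2 ± 4.61 CPM in the libraries labelled KO, log2 fold change -0.82 with an SE of 0.13). The latter list had 2 lower calls without anti-CD40L replicate 2 or 3. The former call, Slc25a20 (-0.47), a carnitine carrier, was not made without anti-CD40L replicates 1 or 3 or KO replicates 1, 2 or 3 or wild-type isotype replicate 3, nor with limma-voom or a replicate block (adjusted p from 0.0543 to 0.142).

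Iron and redox genes divided. Of 25 tested 5 were higher and 3 lower, and Txnip and Srxn1, described above, were 2 of the lower ones, with Nfe2l2, the oxidative stress regulator NRF2 (-0.36). Tfrc, the transferrin receptor that brings in iron, was at 544, 346 and 324 against 181, 211 and 304 CPM (log2 fold change 0.80 with an SE of 0.20; edgeR's Benjamini-Hochberg adjusted p = 0.0278). The lowest anti-CD40L library lay just above the highest KO one, and Tfrc was not called without anti-CD40L replicate 1 or KO replicates 1 or 2, nor with a fit of only the 6 libraries or thinned counts (adjusted p from 0.0596 to 0.12). Higher calls fell to 0 without KO replicate 2, 1 without anti-CD40L replicate 1 or KO replicate 1, 2 without anti-CD40L replicate 3 and 3 without KO replicate 3 or wild-type isotype replicate 3. Nfe2l2 was not called without anti-CD40L replicate 1 or KO replicates 1, 2 or 3 or wild-type isotype replicates 1, 2 or 3, nor with no filter or a fit of only the 6 libraries or a replicate block or counts averaged over transcripts (adjusted p from 0.0506 to 0.129). Of 21 genes of amino acid transport and glutamine use 1 was higher and 1 lower (9.52% called, against 6.83% of all genes). Of 17 serine and one-carbon genes 1 was lower (5.88%), and 2 of 12 amino acid stress genes were (16.7%). No polyamine gene of 12 was called. By edgeR 4 of the 12 had an unadjusted p under 0.05, and DESeq2 called 0, limma-voom 0 and limma-voom with quality weights 1. Amd1, which makes the aminopropyl donor of polyamines, had the smallest p (log2 fold change 0.35 with an SE of 0.13; edgeR's Benjamini-Hochberg adjusted p = 0.126), and it was called with a replicate block, without the filter and without KO replicate 3 (adjusted p = 0.0407, 0.012 and 0.0392), a fit in which 3 polyamine genes were higher. Slc1a5, a glutamine carrier, was lower (-0.36) and was not called without anti-CD40L replicate 1 or KO replicate 2 (adjusted p from 0.0601 to 0.093). The transport list had no higher call without anti-CD40L replicate 1 or KO replicate 1 or 2, and 2 without KO replicate 3. The amino acid stress genes had 1 call without anti-CD40L replicate 3 and none without anti-CD40L replicate 1, KO replicate 1 or 2, or any wild-type isotype library, and the 1 serine gene, Shmt1 (-0.29), was not called without anti-CD40L replicates 1, 2 or 3 or KO replicates 1 or 2 or wild-type isotype replicates 1, 2 or 3, nor with no filter or upper-quartile scaling or a fit of only the 6 libraries or a replicate block (adjusted p from 0.0534 to 0.221).

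**Figure D4:**
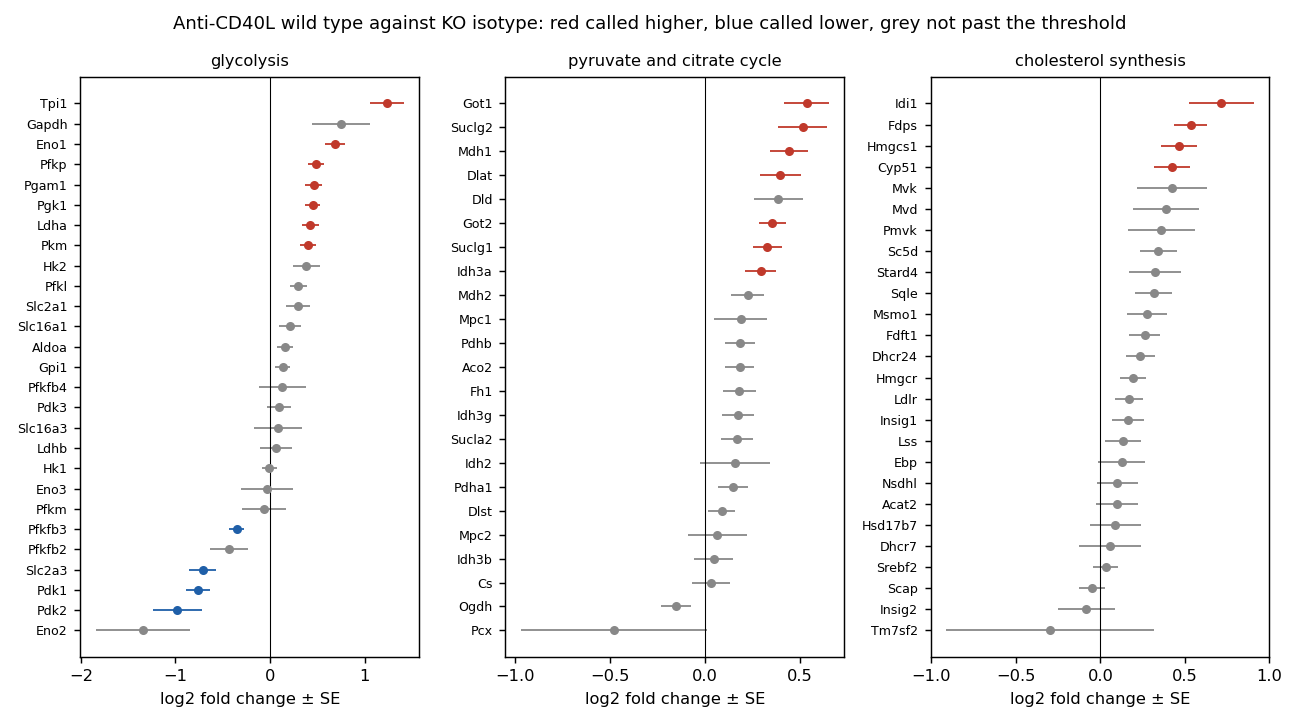
Log2 fold change with its SE for every tested gene of glycolysis, of pyruvate and citrate cycle metabolism and of cholesterol synthesis, with called genes in red (higher) or blue (lower). In the middle panel 21 of 23 genes and in the right panel 23 of 26 lie right of 0, while in glycolysis the called enzymes lie to the right and Pdk1, Pdk2, Slc2a3 and Pfkfb3 to the left.

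Several adhesion receptors were lower on anti-CD40L. Of 17 integrin chains tested, out of 26 listed, 6 were lower and none higher (median -0.65). Itga4, the alpha 4 chain that binds VCAM-1 and fibronectin (chromosome 2, 79255426 to 79333114), was at 43.1, 38.3 and 27.9 CPM on anti-CD40L and 108, 122 and 138 CPM in the libraries labelled KO (log2 fold change -1.73 with an SE of 0.16; edgeR's Benjamini-Hochberg adjusted p = 5.83e-05). Itgb7, which joins alpha 4 in the gut-homing integrin, was at 29.3, 36.2 and 39.2 against 105, 80.2 and 62.4 CPM (log2 fold change -1.25 with an SE of 0.19; edgeR's Benjamini-Hochberg adjusted p = 0.00164). Both chains were clear of overlap, and wild-type isotype means were 113 ± 20.8 and 101 ± 20.2 CPM. Itgb3, a beta chain of vitronectin and fibrinogen receptors and of a known CD40L-binding integrin, was at 7.17, 9.23 and 4.59 against 22.3, 24.6 and 22.5 CPM (log2 fold change -1.68 with an SE of 0.25; edgeR's Benjamini-Hochberg adjusted p = 0.00115). Itgb1, the partner of most alpha chains, gave no call (154 ± 15.6 CPM on anti-CD40L and 130.3 ± 15 CPM in the libraries labelled KO; log2 fold change 0.24 with an SE of 0.10; edgeR's Benjamini-Hochberg adjusted p = 0.196).

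Other integrins that are known to bind CD40L were at low levels. Itgam, the alpha chain of Mac-1, was at 0.269, 0.304 and 0 against 2.28, 1.1 and 1.4 CPM (log2 fold change -2.74 with an SE of 0.76; edgeR's Benjamini-Hochberg adjusted p = 0.0437), a call made at the edge of detection and not kept in any of the 9 fits that left out 1 library, nor with limma-voom or limma-voom with quality weights or a fit of only the 6 libraries or thinned counts (adjusted p from 0.0504 to 0.144). Itga2b, the platelet alpha IIb chain, was at 0.386 ± 0.359 CPM on anti-CD40L and 1.42 ± 0.402 CPM in the libraries labelled KO and was not called (edgeR's Benjamini-Hochberg adjusted p = 0.148). Itga5, the fibronectin receptor chain, was at 5.49 ± 2.11 CPM on anti-CD40L and 8.91 ± 0.352 CPM in the libraries labelled KO and was not called either (edgeR's Benjamini-Hochberg adjusted p = 0.168). Itgal, the alpha chain of LFA-1, the main integrin of the T cell synapse, was added after its values were seen, at 591 ± 45.1 CPM on anti-CD40L and 594 ± 33.4 CPM in the libraries labelled KO (log2 fold change -0.01 with an SE of 0.08; edgeR's Benjamini-Hochberg adjusted p = 0.974). Itga2 (-3.22) and Itga6 (-0.36) were also among the lower chains, and were not called in 7 and 6 of the 9 fits that left out 1 library. The count of lower integrin chains was 3 without KO replicate 1, KO replicate 2, wild-type isotype replicate 1 or wild-type isotype replicate 3.

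Genes of integrin activation and focal adhesion were lower as well, 7 of 36 tested with none higher (6 to 8 over the fits that left out 1 library). Rasgrp2, which loads RAP1 with GTP, was at 7.62, 11.9 and 11.1 against 32.6, 36.6 and 23.5 CPM (log2 fold change -1.61 with an SE of 0.22; edgeR's Benjamini-Hochberg adjusted p = 0.000629). Fyb, the adaptor ADAP that links the T cell receptor to integrins, was at 155, 148 and 164 against 284, 268 and 248 CPM (log2 fold change -0.78 with an SE of 0.11; edgeR's Benjamini-Hochberg adjusted p = 0.00127). Sipa1l1, which turns RAP1 off, was lower too, at 70.00 ± 8.8 CPM on anti-CD40L and 123 ± 14.1 CPM in the libraries labelled KO (log2 fold change -0.81 with an SE of 0.11). The group therefore held both activators and an inhibitor of RAP1. Rapgef4, given above among the largest changes, is a further RAP1 exchange factor.

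Selectin-dependent rolling was represented by 14 genes, 4 lower and none higher (3 to 5 when 1 library was left out). St6gal1 and St3gal1 add sialic acid to surface glycans. St6gal1 was at 46.9, 69.8 and 46.6 against 145, 135 and 106 CPM (log2 fold change -1.23 with an SE of 0.15; edgeR's Benjamini-Hochberg adjusted p = 0.000406), and St3gal1 at 96.1, 106 and 85.6 against 172, 156 and 162 CPM (log2 fold change -0.76 with an SE of 0.09; edgeR's Benjamini-Hochberg adjusted p = 0.000328). Cd44, the hyaluronan receptor of activated T cells, was at 141, 85.6 and 83.7 against 59.5, 64.9 and 77.2 CPM and was not called (log2 fold change 0.63 with an SE of 0.19; edgeR's Benjamini-Hochberg adjusted p = 0.0714). Cd44 was called by DESeq2, by limma-voom with quality weights, without the filter, without anti-CD40L replicate 2 and without KO replicate 3 (adjusted p = 0.0247, 0.0464, 2.05e-06, 0.0462 and 0.0487).

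Among 15 homing and egress receptors 2 were lower (13.3% called against 6.83% of all genes). S1pr1, which leads T cells out of lymphoid organs toward sphingosine 1-phosphate (chromosome 3, 115710433 to 115715055), was at 32.7, 42.9 and 40.7 CPM on anti-CD40L and 254, 200.4 and 189 CPM in the libraries labelled KO, 5.54-fold lower (log2 fold change -2.47 with an SE of 0.15; edgeR's Benjamini-Hochberg adjusted p = 1.4e-06). Wild-type isotype libraries had 279, 206 and 231 CPM, overlapping the libraries labelled KO. Cxcr4, the receptor for CXCL12, was at 17.5 ± 6.79 CPM on anti-CD40L and 31.7 ± 5.45 CPM in the libraries labelled KO (log2 fold change -0.89 with an SE of 0.24; edgeR's Benjamini-Hochberg adjusted p = 0.0435) and was not called without anti-CD40L replicates 1 or 2 or KO replicates 1 or 2 or wild-type isotype replicates 1, 2 or 3, nor with a fit of only the 6 libraries or a replicate block or thinned counts (adjusted p from 0.0526 to 0.146). Ccr7, which guides naive T cells into lymph nodes, was at 1090.4, 919 and 949 against 761, 764 and 743 CPM. Its groups did not overlap, yet it missed the threshold (log2 fold change 0.38 with an SE of 0.12; edgeR's Benjamini-Hochberg adjusted p = 0.065). Ccr7 was called by DESeq2, limma-voom with quality weights, a fit of only the 6 libraries, a replicate block, no filter and without wild-type isotype replicate 1 (adjusted p = 0.0205, 0.0433, 0.0365, 0.0454, 0.000973 and 0.0167).

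Immunoglobulin-family and other adhesion receptors had 6 of 30 lower and 1 higher. Sema7a, a membrane semaphorin, was at 59.8, 83.8 and 69 against 226, 179 and 175 CPM (log2 fold change -1.45 with an SE of 0.16; edgeR's Benjamini-Hochberg adjusted p = 0.000139). Crtam, a nectin-like receptor of cytotoxic CD4+ cells, was at 43.8, 57 and 53.7 against 108, 106 and 96.8 CPM (log2 fold change -1.01 with an SE of 0.12; edgeR's Benjamini-Hochberg adjusted p = 0.000246). L1cam, a homophilic adhesion molecule, was at 3.41, 1.93 and 0.955 against 12.8, 14.5 and 8.72 CPM (log2 fold change -2.40 with an SE of 0.35; edgeR's Benjamini-Hochberg adjusted p = 0.00111). The higher member was Cd200, a ligand that restrains myeloid cells, at 149 ± 21.4 CPM on anti-CD40L and 96 ± 15.1 CPM in the libraries labelled KO (log2 fold change 0.64 with an SE of 0.13). Matrix and sheddase genes had 3 of 18 lower and 1 higher. Adam19, a membrane metalloproteinase, was the higher one, at 20.6, 33 and 17.2 against 9.75, 12.2 and 10.9 CPM (log2 fold change 1.12 with an SE of 0.22; edgeR's Benjamini-Hochberg adjusted p = 0.00716), and wild-type isotype libraries had 21.2, 25.9 and 25.2 CPM, so the libraries labelled KO stood below both other groups. Plaur, the urokinase receptor, was at 3.23, 3.45 and 0.764 against 13.5, 10.8 and 10.3 CPM (log2 fold change -2.10 with an SE of 0.33; edgeR's Benjamini-Hochberg adjusted p = 0.00202).

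Actin and migration machinery had 6 of 48 genes lower and 1 higher (14.6% called against 6.83% of all genes), and 2 were higher without anti-CD40L replicate 1 or 3. Vim, the intermediate filament vimentin, was at 4.39, 3.35 and 1.34 against 18.1, 15.1 and 11.3 CPM (log2 fold change -2.18 with an SE of 0.31; edgeR's Benjamini-Hochberg adjusted p = 0.000853). Arhgef18, a guanine nucleotide exchange factor, was at 31.2, 42.3 and 44.7 against 159, 152 and 115 CPM (log2 fold change -1.86 with an SE of 0.18; edgeR's Benjamini-Hochberg adjusted p = 6.93e-05). Arhgap45, a GTPase-activating protein, was lower too, at 286 ± 55.9 CPM on anti-CD40L and 527 ± 73.6 CPM in the libraries labelled KO (log2 fold change -0.88 with an SE of 0.13). None of the 3 overlapped between groups, like nearly all called genes. Of 15 tetraspanins 1 was called, and it was higher (6.67% against 6.83% of all genes). It was Tspan31 (32.4 ± 2.65 CPM on anti-CD40L and 23.2 ± 2.2 CPM in the libraries labelled KO, log2 fold change 0.49 with an SE of 0.13). Tspan31 was not called without anti-CD40L replicates 1 or 2 or KO replicates 1, 2 or 3 or wild-type isotype replicates 1 or 3, nor with a fit of only the 6 libraries or a replicate block or thinned counts (adjusted p from 0.052 to 0.164).

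**Figure D5:**
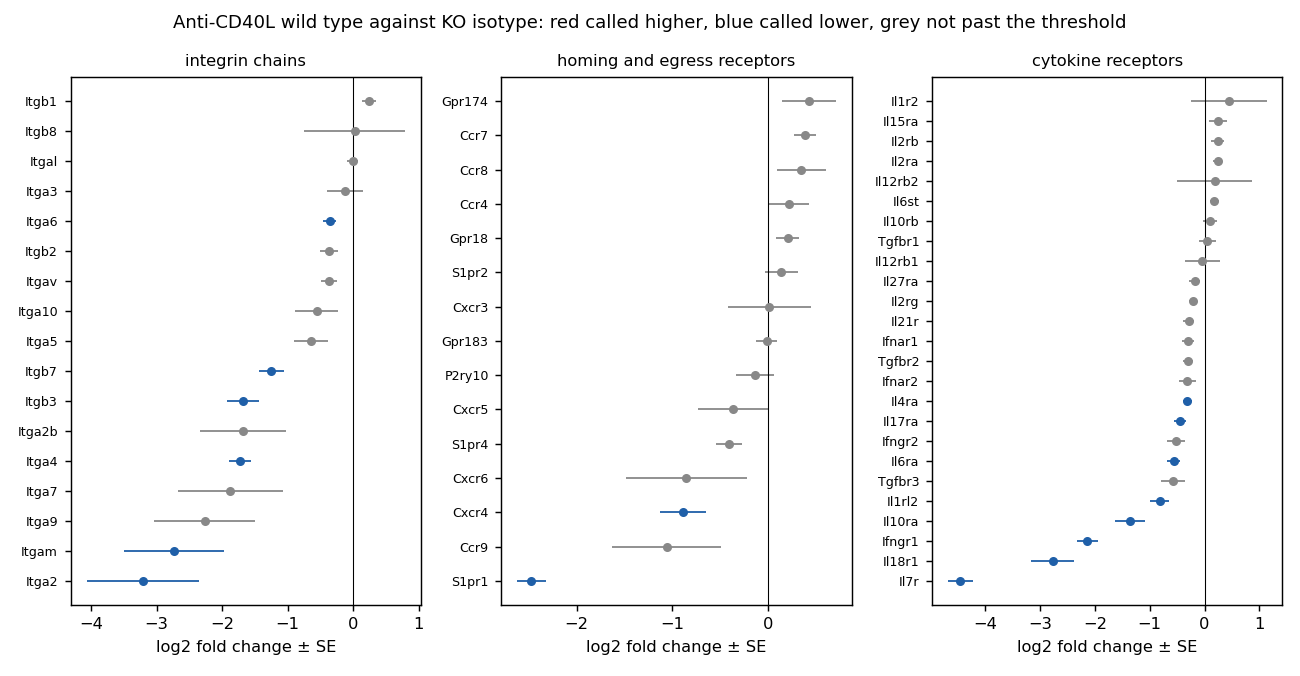
Log2 fold change with its SE for every tested integrin chain, homing or egress receptor and cytokine receptor, with called genes in blue (all lower on anti-CD40L) and genes not called in grey. Itgal lies near 0 and Itgb1 somewhat above it, while the called Itga2, Itgam, Itga4, Itgb3 and Itgb7 lie below -1. S1pr1 stands alone at -2.47, and Il7r at -4.46 is the furthest of the cytokine receptors.

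Of 12 tested genes of CD40L and the TRAF adaptors 1 was higher and 2 lower, 25% called against 6.83% of all genes. Traf5, an adaptor of OX40 and other TNF receptors, was at 9.14, 10.6 and 9.55 against 18.1, 15.4 and 14.5 CPM (log2 fold change -0.70 with an SE of 0.16; edgeR's Benjamini-Hochberg adjusted p = 0.0156), and its wild-type isotype mean was 21.9 ± 0.188 CPM. Traf4 was at 92.1, 90.8 and 109 against 75.2, 73.2 and 68.3 CPM (log2 fold change 0.43 with an SE of 0.10; edgeR's Benjamini-Hochberg adjusted p = 0.0155). Traf1, Traf2, Traf3 and Traf6, which carry signals of TNF receptors, differed by 0.01, 0.04, 0.01 and 0.23 on the log2 scale, without a call (edgeR's Benjamini-Hochberg adjusted p = 0.971, 0.892, 0.98 and 0.121). Traf5 was not called without anti-CD40L replicate 1 or KO replicates 1 or 2, nor with a fit of only the 6 libraries (adjusted p from 0.069 to 0.0824), and Traf4 was not called without KO replicate 2 (adjusted p = 0.0671). The other lower member was Traf3ip3, a TRAF3-interacting protein gene (85.7 ± 13.6 CPM on anti-CD40L and 125 ± 21.6 CPM in the libraries labelled KO; log2 fold change -0.55 with an SE of 0.13; edgeR's Benjamini-Hochberg adjusted p = 0.0248), which was not called without anti-CD40L replicates 1 or 2 or KO replicates 1 or 2, nor with a fit of only the 6 libraries or a replicate block (adjusted p from 0.0515 to 0.112). Lower calls of the list were 0 without anti-CD40L replicate 1, KO replicate 1 or KO replicate 2 and 1 without anti-CD40L replicate 2. Cd40 had 2 counts over the anti-CD40L libraries and 5 over the libraries labelled KO, a ratio of 0.588 (exact 95% interval 0.056 to 3.59, counting error only), too few for a comparison.

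Rack1 had 1735, 1761 and 1897 CPM on anti-CD40L and 2026, 1791 and 1539.6 CPM in the libraries labelled KO, with overlapping groups (log2 fold change 0.01 with an SE of 0.10; edgeR's Benjamini-Hochberg adjusted p = 0.97). Of 15 genes of RACK1 and protein kinase C 1 was higher and 3 lower. Prkca, a calcium-dependent protein kinase C, was the higher one, at 129, 112 and 119.6 against 87.9, 88.9 and 92.5 CPM (log2 fold change 0.42 with an SE of 0.09; edgeR's Benjamini-Hochberg adjusted p = 0.0109), and it was not called without anti-CD40L replicate 1 or KO replicate 2 (adjusted p from 0.0553 to 0.0607). Prkd2, a kinase that protein kinase C activates, was at 81.3, 87.7 and 58.7 against 150.3, 131 and 114 CPM (log2 fold change -0.78 with an SE of 0.15; edgeR's Benjamini-Hochberg adjusted p = 0.00637). Marcksl1, a membrane substrate of protein kinase C, was lower as well (86.2 ± 18.5 CPM on anti-CD40L and 138 ± 5.66 CPM in the libraries labelled KO; log2 fold change -0.69 with an SE of 0.13). Prkcq, the isoform of the T cell synapse, Prkcd and Prkcb differed by 0.17, 0.37 and -0.30 on the log2 scale, which gave no call (edgeR's Benjamini-Hochberg adjusted p = 0.3, 0.321 and 0.0949). Prkcb was called without anti-CD40L replicate 2 (adjusted p = 0.0318) and Prkcd without the filter (0.0282).

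Proximal T cell receptor signalling had 5 of 47 genes lower and 1 higher (12.8% called against 6.83% of all genes). Themis, an adaptor that tunes receptor signals, was at 20.8, 23.9 and 26.6 against 48.4, 49 and 50.7 CPM (log2 fold change -1.07 with an SE of 0.13; edgeR's Benjamini-Hochberg adjusted p = 0.000384). Grap2, the adaptor GADS that joins LAT to SLP-76, was at 123, 119 and 87.1 against 232, 209 and 184 CPM (log2 fold change -0.91 with an SE of 0.14; edgeR's Benjamini-Hochberg adjusted p = 0.00162). The higher count was 2 without KO replicate 3, and the lower count was 3 without anti-CD40L replicate 1, KO replicate 1 or wild-type isotype replicate 3, 2 without KO replicate 2 and 8 without KO replicate 3. Sla, which promotes receptor degradation, was higher (535 ± 35.1 CPM on anti-CD40L and 395 ± 26.7 CPM in the libraries labelled KO; log2 fold change 0.44 with an SE of 0.09) and was not called without KO replicate 2 (adjusted p = 0.0727). Calcium and NFAT genes had 5 of 32 lower and none higher, and 3 without KO replicate 2. Itpr2, a calcium release channel, was at 36.1, 46.5 and 39.7 against 85.1, 74.1 and 66.7 CPM (log2 fold change -0.88 with an SE of 0.12; edgeR's Benjamini-Hochberg adjusted p = 0.000764), and Orai2, a store-operated channel subunit, at 29.6, 44.2 and 39.9 against 74.5, 70.7 and 55.4 CPM (log2 fold change -0.82 with an SE of 0.15; edgeR's Benjamini-Hochberg adjusted p = 0.00468).

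In the RAS and MAP kinase list 2 of 47 genes were higher and 4 lower (12.8% called against 6.83% of all genes). Dusp5, given above, was higher. Rasa3, which inactivates RAS and RAP1, was at 73, 98.3 and 76 against 233, 191 and 158 CPM (log2 fold change -1.23 with an SE of 0.16; edgeR's Benjamini-Hochberg adjusted p = 0.000495), and Map2k3, a kinase of p38, at 221, 269.9 and 272 against 439, 384 and 388 CPM (log2 fold change -0.67 with an SE of 0.12; edgeR's Benjamini-Hochberg adjusted p = 0.00347). Rasgrp1, the diacylglycerol-driven RAS activator of T cells, was at 177 ± 11.7 CPM on anti-CD40L and 256 ± 9.2 CPM in the libraries labelled KO (log2 fold change -0.53 with an SE of 0.10). Higher calls numbered 1 without anti-CD40L replicate 1 or 2 or KO replicate 1 or 2. PI3K, AKT and FOXO genes had 5 of 30 lower and none higher, with 2 or 3 left without anti-CD40L replicate 1 (3), anti-CD40L replicate 3 (2), KO replicate 1 (2) or KO replicate 2 (2). Pik3ip1, a membrane inhibitor of PI3K, was at 8.69, 13 and 12.2 against 64.3, 54.5 and 42.9 CPM, 4.8-fold lower (log2 fold change -2.26 with an SE of 0.19; edgeR's Benjamini-Hochberg adjusted p = 3.6e-05). Sgk1, a kinase activated through PI3K, was at 3.5, 5.78 and 2.48 against 10.1, 12.7 and 13 CPM (log2 fold change -1.56 with an SE of 0.26; edgeR's Benjamini-Hochberg adjusted p = 0.00279).

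Of 29 NF-kB genes 1 was called, 3.45% against 6.83% of all genes. It was Tnip3, at 2.78, 2.43 and 3.63 against 1.19, 0.293 and 0.636 CPM (log2 fold change 2.09 with an SE of 0.55; edgeR's Benjamini-Hochberg adjusted p = 0.0363). Tnip3 was not called without anti-CD40L replicates 1 or 2 or KO replicates 2 or 3 or wild-type isotype replicates 1, 2 or 3, nor with a fit of only the 6 libraries (adjusted p from 0.0575 to 0.192). Of 25 TNF superfamily genes 2 were higher and 1 lower (12% called against 6.83% of all genes). Tnfrsf4, the costimulatory receptor OX40, was at 156, 141 and 166 against 109, 104 and 108 CPM (log2 fold change 0.53 with an SE of 0.08; edgeR's Benjamini-Hochberg adjusted p = 0.00191). Tnfsf14, the cytokine LIGHT, was at 13.5, 14.2 and 24.8 against 41.7, 41.7 and 39.6 CPM (log2 fold change -1.27 with an SE of 0.20; edgeR's Benjamini-Hochberg adjusted p = 0.0018). The wild-type isotype libraries had 18.1, 23.2 and 19.7 CPM of Tnfsf14, among the anti-CD40L values, so the libraries labelled KO stood above both other groups. TNF superfamily counts were 1 higher without anti-CD40L replicate 1 or KO replicate 2, 2 lower without anti-CD40L replicate 2 and 3 lower without KO replicate 3.

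Costimulatory and inhibitory receptors had 2 of 18 higher and 3 lower. Ctla4, which competes with CD28 for its ligands, was at 24.9, 18 and 23.3 against 10.1, 10.6 and 10.9 CPM (log2 fold change 1.06 with an SE of 0.23; edgeR's Benjamini-Hochberg adjusted p = 0.014). With Lag3, described above, it made up the higher members. Ctla4 was not called without anti-CD40L replicate 1 or KO replicates 1 or 2 (adjusted p from 0.0508 to 0.0671). Higher calls were 1 without KO replicate 1 or 2 and 4 without KO replicate 3. Sh2d1a, the SLAM adaptor SAP, was at 5.38, 4.46 and 5.35 against 16, 12 and 11 CPM (log2 fold change -1.36 with an SE of 0.22; edgeR's Benjamini-Hochberg adjusted p = 0.00226), and Cd160, a receptor for HVEM, at 11.8, 17.1 and 18 against 31.4, 31.1 and 28.8 CPM (log2 fold change -0.98 with an SE of 0.20; edgeR's Benjamini-Hochberg adjusted p = 0.0103). HVEM is also a receptor for LIGHT.

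Cytokine receptors had 8 of 25 lower and none higher (median -0.30). Besides Il7r, Ifngr1, the ligand-binding chain of the interferon gamma receptor, was at 23.6, 34.4 and 33.1 against 166, 124 and 108 CPM, 4.39-fold lower (log2 fold change -2.14 with an SE of 0.19; edgeR's Benjamini-Hochberg adjusted p = 3.6e-05). Il18r1, a chain of the IL-18 receptor, was at 1.43, 0.913 and 4.01 against 16, 13 and 9.61 CPM (log2 fold change -2.77 with an SE of 0.39; edgeR's Benjamini-Hochberg adjusted p = 0.000963). In wild-type isotype libraries their means were 119 ± 21.1 and 12.4 ± 1.76 CPM, near the libraries labelled KO. Il2ra, the high-affinity IL-2 receptor chain of activated cells, was at 869, 812 and 832 against 675, 692 and 763 CPM and was not called (log2 fold change 0.24 with an SE of 0.08; edgeR's Benjamini-Hochberg adjusted p = 0.1). It was called by DESeq2, limma-voom with quality weights and without KO replicate 3 (adjusted p = 0.0257, 0.0264 and 0.0439). The receptor count was 4 without anti-CD40L replicate 1 or KO replicate 2 and 5 without KO replicate 1. Of 24 JAK, STAT and SOCS genes 1 was higher and 2 lower (12.5% called against 6.83% of all genes). Cish, a feedback inhibitor induced by STAT5, was at 56.8 ± 5.93 CPM on anti-CD40L and 34.6 ± 1.9 CPM in the libraries labelled KO (log2 fold change 0.71 with an SE of 0.18) and was not called without anti-CD40L replicates 1 or 3 or KO replicates 1, 2 or 3 (adjusted p from 0.0604 to 0.0969). The lower count was 1 in 7 of the 9 fits that left out 1 library, all but those without anti-CD40L replicate 3 or KO replicate 3. Stat5b was lower, at 120.0 ± 8.91 CPM on anti-CD40L and 174 ± 14.7 CPM in the libraries labelled KO (log2 fold change -0.53 with an SE of 0.10; edgeR's Benjamini-Hochberg adjusted p = 0.00459), and remained so in all 21 settings.

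Only 9 of 30 cytokine and chemokine genes passed the filter on low counts, 2 of them higher and 3 lower. Il2, the T cell growth factor, was at 15.4, 11.1 and 32.1 against 6.72, 8.27 and 8.08 CPM (log2 fold change 1.30 with an SE of 0.33; edgeR's Benjamini-Hochberg adjusted p = 0.0308). Replicate 3, the shallow library, was the highest, and Il2 was not called without anti-CD40L replicate 3 or KO replicates 1, 2 or 3, nor with limma-voom or a fit of only the 6 libraries (adjusted p from 0.0504 to 0.102). Xcl1, which draws XCR1+ dendritic cells, was at 77.8, 106 and 61.9 against 323, 255 and 283 CPM (log2 fold change -1.80 with an SE of 0.18; edgeR's Benjamini-Hochberg adjusted p = 7.28e-05), with 156, 226 and 182 CPM in wild-type isotype libraries, between the 2 groups. Ccl3, an inflammatory chemokine, was at 7.53, 6.59 and 1.34 against 23.2, 13.2 and 15.8 CPM (log2 fold change -1.65 with an SE of 0.37; edgeR's Benjamini-Hochberg adjusted p = 0.0169) and was not called without KO replicate 1, nor with a fit of only the 6 libraries (adjusted p from 0.0504 to 0.075). The lower count was 1 without KO replicate 1. Lif, an IL-6 family cytokine, was higher (11.7 ± 2.76 CPM on anti-CD40L and 5.24 ± 2.12 CPM in the libraries labelled KO; log2 fold change 1.19 with an SE of 0.32) and was not called without anti-CD40L replicates 1 or 3 or KO replicates 2 or 3 or wild-type isotype replicates 1 or 2, nor with a fit of only the 6 libraries or a replicate block or thinned counts (adjusted p from 0.0506 to 0.192). Ifng, the Th1 cytokine, had 18 counts on anti-CD40L (2, 6 and 10 in replicates 1 to 3) and 5 in the libraries labelled KO. The ratio was 5.29 (exact 95% interval 1.89 to 18.2, counting error only, without the spread between libraries), and most counts came from replicate 3. Il4, the Th2 cytokine, had 0 against 3 counts, which this depth cannot compare.

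G protein and cyclic AMP genes had 5 of 40 lower and 1 higher (15% called against 6.83% of all genes). Pde2a, a phosphodiesterase of cyclic nucleotides, was at 7.26, 16.6 and 13.2 against 87.6, 84.1 and 62.9 CPM, 6.4-fold lower (log2 fold change -2.68 with an SE of 0.25; edgeR's Benjamini-Hochberg adjusted p = 4.55e-05). Arrb1, a beta-arrestin, was at 10.8, 15.5 and 14.3 against 45.6, 43.6 and 30.8 CPM (log2 fold change -1.57 with an SE of 0.20; edgeR's Benjamini-Hochberg adjusted p = 0.000414), and Adora2a, the adenosine receptor that raises cyclic AMP, at 27.6, 35.3 and 34.2 against 72.5, 67 and 62.3 CPM (log2 fold change -1.06 with an SE of 0.13; edgeR's Benjamini-Hochberg adjusted p = 0.000431). Rgs1, which shortens G protein signals of chemokine receptors, was the higher member, at 177, 116 and 146 against 75.2, 56.7 and 91.8 CPM (log2 fold change 0.97 with an SE of 0.17; edgeR's Benjamini-Hochberg adjusted p = 0.0042). A further member was higher without anti-CD40L replicate 2. Each of these 4 separated the groups without overlap, like nearly all called genes. Of 28 TGF-beta, Notch and Wnt genes 5 were lower and 1 higher (21.4% called against 6.83% of all genes). Of this list 2 were lower without KO replicate 1 or 2 and none higher without KO replicate 2. Smad7, a TGF-beta inhibitor, was at 41.9 ± 7.38 CPM on anti-CD40L and 68.3 ± 6.52 CPM in the libraries labelled KO (log2 fold change -0.71 with an SE of 0.13), and Axin2, a Wnt target, at 10.6 ± 1.89 CPM on anti-CD40L and 22.1 ± 1.55 CPM in the libraries labelled KO (log2 fold change -1.04 with an SE of 0.19).

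Some genes that T cell receptor signals induce early were lower on anti-CD40L. Of 24 immediate early and AP-1 genes 7 were lower and none higher (6 to 8 when 1 library was left out). Nr4a2, an orphan nuclear receptor (chromosome 2, 57106830 to 57124003), was at 70.5, 83.7 and 69 against 207, 180.1 and 215 CPM (log2 fold change -1.43 with an SE of 0.11; edgeR's Benjamini-Hochberg adjusted p = 1.96e-05). The wild-type isotype libraries, at 115, 146 and 135 CPM, lay between the 2 groups and overlapped neither. Fosl2, an AP-1 subunit, was at 39.5, 53.1 and 43.4 against 145, 113 and 128 CPM (log2 fold change -1.50 with an SE of 0.13; edgeR's Benjamini-Hochberg adjusted p = 3.6e-05), again with wild-type isotype libraries between, at 91.6 ± 10.3 CPM. Bach1, a repressor of haem and redox genes, was at 31.3, 44.2 and 33.8 against 92.7, 96 and 103 CPM (log2 fold change -1.41 with an SE of 0.13; edgeR's Benjamini-Hochberg adjusted p = 5.83e-05). Named after their values were seen, Nr4a1, Nr4a3 and Egr1 had log2 fold changes of -0.93, -0.68 and -0.85, and all 3 were called in each fit that left out 1 library. Cd69, an early surface marker of activation, was not called (402, 377 and 442 against 394, 394 and 447 CPM; log2 fold change -0.02 with an SE of 0.10; edgeR's Benjamini-Hochberg adjusted p = 0.938).

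Quiescence genes made the list with the largest share called lower: 15 of 30 lower and none higher, 29 of 30 with a negative log2 fold change (median -0.65; 13 to 17 lower when 1 library was left out). Klf2, the transcription factor that sustains S1pr1 in resting T cells, was at 58, 72.6 and 57.5 against 163, 149 and 118 CPM (log2 fold change -1.19 with an SE of 0.15; edgeR's Benjamini-Hochberg adjusted p = 0.00051). Cdkn1b, the cell cycle inhibitor p27, was at 23.7, 25.1 and 17 against 59.7, 55.1 and 55.8 CPM (log2 fold change -1.35 with an SE of 0.14; edgeR's Benjamini-Hochberg adjusted p = 8.48e-05). Slfn5, a Schlafen family gene, was at 9.86, 10.6 and 11.5 against 32.3, 32.9 and 27 CPM (log2 fold change -1.54 with an SE of 0.18; edgeR's Benjamini-Hochberg adjusted p = 0.000328), and Gimap4, a lymphocyte GTPase, at 108, 129 and 156 against 391, 287 and 265 CPM (log2 fold change -1.27 with an SE of 0.16; edgeR's Benjamini-Hochberg adjusted p = 0.000375). None of the 4 overlapped, as was so for 768 of the 769 called genes. Schlafen and GIMAP genes have close paralogs, so their counts are uncertain. Of 43 MYC and ribosome biogenesis genes 1 was higher, the chaperonin Hspd1 (0.43), and of 31 cell cycle genes 1, the replication helicase Mcm6 (0.29), which makes 2.33% and 3.23% called against 6.83% of all genes. Hspd1 was not called without anti-CD40L replicates 1 or 3 or KO replicates 1 or 2, nor with a fit of only the 6 libraries (adjusted p from 0.0568 to 0.113), and Mcm6 was not called without anti-CD40L replicate 1 or KO replicates 1 or 2, nor with a fit of only the 6 libraries (adjusted p from 0.06 to 0.0788). The MYC list had 2 higher calls without anti-CD40L replicate 2 or KO replicate 3.

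Among 22 helper lineage regulators 2 were higher and 4 lower. Irf4, which the T cell receptor induces in proportion to its signal, was at 2405, 2308 and 2347 against 1507, 1476 and 1748 CPM (log2 fold change 0.58 with an SE of 0.10; edgeR's Benjamini-Hochberg adjusted p = 0.00273), and Bhlhe40, a regulator of cytokine output, at 143, 110.3 and 128 against 72.4, 59 and 62.2 CPM (log2 fold change 0.98 with an SE of 0.14; edgeR's Benjamini-Hochberg adjusted p = 0.000881). Bcl6, the follicular helper factor, was at 39.9, 65.8 and 41.1 against 97.9, 98.1 and 96 CPM (log2 fold change -0.98 with an SE of 0.20; edgeR's Benjamini-Hochberg adjusted p = 0.0085) and was not called without anti-CD40L replicate 3 (adjusted p = 0.057). Runx1 was at 74.2 ± 13.3 CPM on anti-CD40L and 126 ± 7.91 CPM in the libraries labelled KO (log2 fold change -0.76 with an SE of 0.13). Irf8 was at 36.3, 37.3 and 42.8 against 72.2, 58 and 59 CPM (log2 fold change -0.71 with an SE of 0.12; edgeR's Benjamini-Hochberg adjusted p = 0.00273), with wild-type isotype libraries at 44.1, 39.8 and 39.6 CPM, near the anti-CD40L ones. Gata3 of Th2 and Foxp3 of regulatory T cells gave no call, with log2 fold changes of -0.71 and 0.13 (edgeR's Benjamini-Hochberg adjusted p = 0.121 and 0.668), and Gata3 was called without the filter (0.0151). Tbx21, of Th1 cells, had 10 counts against 29, a ratio of 0.507 (exact 95% interval 0.221 to 1.07).

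Interferon response genes had 10 of 33 lower and none higher (median -1.09), and 6 without anti-CD40L replicate 1 or 3. Ddx58, the RNA sensor RIG-I, was at 2.87, 2.64 and 5.16 against 31.2, 19.6 and 15.7 CPM (log2 fold change -2.71 with an SE of 0.34; edgeR's Benjamini-Hochberg adjusted p = 0.000442). Irf7, which amplifies type I interferon, was at 1.17, 0.913 and 0 against 12, 5.86 and 5.15 CPM (log2 fold change -3.22 with an SE of 0.60; edgeR's Benjamini-Hochberg adjusted p = 0.0055). Ifi203, of a family of DNA-sensing proteins with close copies, was at 17.3, 15.9 and 12.4 against 54.9, 46.5 and 53.4 CPM (log2 fold change -1.74 with an SE of 0.19; edgeR's Benjamini-Hochberg adjusted p = 0.000133). Zbp1, which senses left-handed nucleic acids, was at 2.87, 3.65 and 1.72 against 33.5, 13.7 and 8.97 CPM (log2 fold change -2.67 with an SE of 0.47), and was not called without anti-CD40L replicate 3, nor with limma-voom or limma-voom with quality weights (adjusted p from 0.0529 to 0.0917). For Ddx58, Irf7 and Zbp1 the highest KO value was in replicate 1. That library also held all 25 counts of S100a8 and all 43 of S100a9, neutrophil genes, found over the 6 libraries, and 15 of the 19 KO counts of Lyz2, a lysozyme gene of myeloid cells.

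Markers of other cells were summed for each library. The 20 myeloid markers reached 46.2 to 51.8 CPM on anti-CD40L and 56.5 to 104 CPM in the libraries labelled KO, without overlap (exact two-sided permutation test, p = 0.1, the smallest that 3 against 3 allows). Of these 3 were tested and none called, and Cd14, Ly6g, Marco, Lyz1 and Spic had no count in the 6 libraries. Wild-type isotype libraries had 81.1 to 93.6 CPM. The 13 natural killer and CD8 T cell markers reached 15.6 to 17.7 CPM against 21.96 to 37.7 CPM, also without overlap (exact two-sided permutation test, p = 0.1), with 4 tested and 1 called, the cytotoxic pore gene Prf1 (2.44 ± 2.23 CPM on anti-CD40L and 9.88 ± 3.39 CPM in the libraries labelled KO; log2 fold change -1.85 with an SE of 0.51), and none at 0 in all 6. Prf1 was not called without anti-CD40L replicate 1 or KO replicates 1 or 2 or wild-type isotype replicates 1, 2 or 3, nor with DESeq2 or limma-voom or limma-voom with quality weights or a fit of only the 6 libraries or a replicate block or thinned counts (adjusted p from 0.0653 to 0.154). All 4 tested members of this list had negative log2 fold changes. Gzmb, a granzyme gene of the list too low to be tested, went the other way. It had 24 counts on anti-CD40L (5, 6 and 13 in replicates 1 to 3) and 18 in the libraries labelled KO. The ratio was 1.96 (exact interval 1.02 to 3.835, counting error only). Gzma, another granzyme gene of the list, had 0 counts against 11. The myeloid sum and the natural killer and CD8 T cell sum moved with the lower interferon, chemokine and Ly6c1 values. The part of these sums in those results was not tested. The 19 B cell markers overlapped, at 22.6 to 41.3 against 22.5 to 69.2 CPM, with 14 tested and none called, as did the 8 dendritic (6.09 to 9.36 against 6.18 to 10.1 CPM), 10 erythroid and platelet (0 to 4.06 against 0.318 to 0.759 CPM) and 9 stromal markers (2.51 to 6.50 against 3.51 to 5.73 CPM). In bulk RNA, fewer cells of a type and less RNA per cell cannot be told apart.

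Wild-type isotype libraries were fitted in the same model, and each of the 2 other comparisons shares libraries with this one, so only values are set side by side. For Il7r the log2 fold change was -4.46 here, -4.27 for anti-CD40L over wild-type isotype and 0.19 for KO over wild-type isotype. S1pr1 gave -2.47, -2.63 and -0.16, Itga4 -1.73, -1.61 and 0.12, and Lag3 1.91, 1.49 and -0.43, in that order. For these 4 the wild-type isotype level lay near the libraries labelled KO. Xcl1 gave -1.80, -1.18 and 0.61, Nr4a2 -1.43, -0.82 and 0.61, and Tpi1 1.23, 0.54 and -0.70. For these the fitted wild-type isotype level lay between the 2 groups. Tnfsf14 gave -1.27, -0.26 and 1.01, and Adam19 1.12, -0.02 and -1.14, where KO over wild-type isotype was the larger of the last 2 values. KO over wild-type isotype did not pass the threshold for any of these 9 genes (edgeR's Benjamini-Hochberg adjusted p from 0.195 to 0.956).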

How the data were processed

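RNA sequencing of 9 libraries of mouse naive CD4+ T cells was analysed. The authors deposited a table of expected counts per transcript, with values in multiples of 0.5. Per the labels' protocols the kit was KAPA mRNA HyperPrep, and the submitters' processing notes name CASAVA 1.8.2, HISAT2 2.1.0 and mm10. The labels used here do not state how reads were assigned to transcripts, or whether by strand, and overlapping genes and close paralogs are therefore uncertain. Counts were rounded up to whole numbers. Of 42361 transcripts 42198 were named through RefSeq GRCm38.p6 and 70 through GENCODE, and 93 were not named. The transcript of highest total was kept for each of 25160 genes.

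All 9 libraries were fitted together with edgeR 4.0.16 in R 4.3.3 (filterByExpr, TMM scaling, robust quasi-likelihood test), and anti-CD40L wild type was compared with the libraries labelled KO at a Benjamini-Hochberg adjusted p of 0.05 over all 11256 genes tested. Levels (CPM) are counts over TMM-scaled library sizes, with SD over 3 libraries. The design had assumed whole counts. Alternatives used DESeq2 1.42.0 and limma 3.58.1. In simulated counts for 11131 genes, the test recovered 54.3% of changes of 1.5-fold, 59.3% at 2-fold and 87.7% at 4-fold, and 10 of 143 calls were genes left unchanged. The simulated libraries varied independently and none was set apart as anti-CD40L replicate 3 is, so these rates may not hold for the data. Exact intervals cover counting error only, at 95%. Replicate pairs of a group varied more than counting error, with a chi-square per degree of freedom of 6.22 to 19.9. That measure covers genes with at least 20 counts in a pair, so it does not size the spread of the lowest genes.

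Genes were named by rule: subject genes of the study whatever their result, the 12 largest changes in each direction among called genes without overlap that reached 5 CPM in a group, and up to 3 called members of each list and direction with the smallest p. Others are marked as named after their values were seen, or are given to account for a list's count. Members and lists were chosen with earlier results of these data known. A few genes within this rule were left out of the text.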

Additional observations from a re-analysis of the deposited data

How the results depend on the processing

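Of 151 called genes named by rule, 90 passed the threshold in all 21 alternatives and 109 in all that left out no library, and none reversed. The total of 769 (202, 567) calls (higher and lower in parentheses) became 1305 (437, 868) without the filter on low counts, 1219 (416, 803) with DESeq2, 1458 (561, 897) with limma-voom and quality weights and 481 (102, 379) in a fit of only the 6 libraries. Higher genes made up 26.3% of calls, and 38.5% with quality weights. Leaving out 1 library gave 346 to 1022 calls, 56 to 404 higher and 290 to 618 lower, with higher genes 16.2% of calls without KO replicate 2 and 39.5% without KO replicate 3. With a replicate block there were 664 calls. Deviations of same-numbered libraries correlated at -0.149, 0.0616 and -0.0538, and 2 of 6 libraries correlated best with their own number. With 3 libraries per group this check cannot decide whether the numbers mark a shared animal or day. The cause of the shifts in the number of calls was not tested. Depth limits low genes, and with all libraries thinned to the smallest there were 659 calls.

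Direction reversed only for genes that were not called, given as log2 fold changes. Cd40lg ranged from -0.243 to 0.0402 when 1 library was left out. Rack1 ranged from -0.0852 to 0.12 when 1 library was left out and was -0.0329 with quality weights and -6.18e-05 with thinned counts. Traf1 ranged from -0.114 to 0.112 when 1 library was left out and was -0.00304 with limma-voom and -0.0762 with quality weights. Traf2 ranged from -0.0679 to 0.163 when 1 library was left out and was -0.112 with quality weights. Traf3 ranged from -0.0877 to 0.0827 when 1 library was left out and was -0.0146 with thinned counts. Prkcd ranged from -0.00351 to 0.592 when 1 library was left out and was -0.0028 with quality weights. Cd69 ranged from -0.0718 to 0.0461 when 1 library was left out. Thy1 ranged from -0.0184 to 0.182 when 1 library was left out.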
